A study of Mus musculus with 2 samples.

Results

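The matrix metalloproteinases (Mmp), the ADAMTS proteases (Adamts) and the tissue inhibitors of metalloproteinases (Timp) were described in 2 sections of mouse melanoma. Members were taken by a rule on gene symbols, every Mmp and Adamts gene with Timp1 to Timp4, which uses no measured value, although the families themselves were picked with earlier results of these data known. The rule found 45 of the 19465 genes in the count matrix, which were 22 Mmp, 19 Adamts and 4 Timp genes. Of these, 44 had 50 or more unique molecular identifiers (UMIs, counted molecules) over both sections and are called measured, and 25 had 500 or more. Timp4 lay just inside the limit with 19 UMIs in WT and 33 in KO, and Mmp1b, the only member outside it, had 1 UMI in each. Mmp1a was not analysed here.

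Both tumours came from B16.F10, a mouse melanoma line that makes pigment, inoculated into untreated mice aged 8 to 16 weeks, and tumours of similar size were taken on day 15. The WT host was labelled Csnk2bfl/fl, floxed at the gene for the regulatory subunit of the kinase CK2 and called wild-type. The KO host was labelled Foxp3-Cre × CK2b-fl/fl, in which Cre under Foxp3 deletes that gene in regulatory T cells, while tumour cells and other host cells keep it. Paraffin sections of 10 µm were profiled with Visium CytAssist, in which gene-specific probe pairs are counted on a grid of spots that each can hold several cells. There was 1 section per genotype, so no difference between genotypes has a replicate check, genotype cannot be told apart from the section and its plane of cut, and intervals (95%) cover counting error only.

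These proteases remodel the tissue around cells. Secreted and membrane-bound metalloproteinases cut collagens, gelatin, elastin and laminins, and activate one another from inactive proforms. ADAMTS enzymes trim procollagens or cut proteoglycans such as aggrecan and versican. Timp proteins bind the active sites of many of these enzymes and block them. In tumours much of this RNA is made by fibroblasts, macrophages and endothelial cells rather than by the cancer cells themselves.

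The WT section held 3066 spots and 88735936 UMIs (median 26818.5 per spot), and the KO section 2746 spots and 94422680 UMIs (median 36769). Genes of other organs, read as probe background, had a median of 16 UMIs in WT and 42 in KO, and 35 members lay above 2 times that background in WT and 27 in KO. The 2 libraries shared 2138 spot barcodes, which are positions of the same array layout. The sections differed in tissue makeup. The fibroblast and collagen list (13 genes, led by Col1a1, Col3a1 and Col1a2) summed to 13297 CPM (UMIs scaled to the section's total) in WT and 1656 in KO, with 12 of 13 genes at least 2-fold lower in KO and none at 0. Its 4 quadrants, cut at the median spot row and column, ran from 845 to 43105 CPM in WT and from 467 to 5550 in KO. The macrophage list (12 genes) stood at 1087 and 720 CPM, with 3 genes at least 2-fold lower. The hypoxia list (11 genes in the matrix) went the other way, 1921 and 3186 CPM, as did the T cell list at 30.2 and 76.5 CPM and the skeletal muscle list at 48.6 and 265 CPM. The melanocytic list stood at 44560 and 52439 CPM, with quadrants from 28026 to 50707 in WT and from 43130 to 55139 in KO. Every quadrant of both sections thus held melanocytic RNA. The 4 Y-linked genes measured gave 0 UMIs in WT and 1477 in KO, a difference that cannot be told apart from genotype. In such sums, fewer cells of a type and less RNA per cell cannot be told apart.

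A cluster of 10 metalloproteinase genes lies side by side on mouse chromosome 9, from 7272514 to 7699585 in GRCm38.p6, in the order Mmp13, Mmp12, Mmp1b, Mmp3, Mmp1a, Mmp10, Mmp8, Mmp27, Mmp20 and Mmp7, and 9 of them are in the matrix. Their promoters are shown because the results below turn on Mmp3, Mmp10, Mmp12 and Mmp13. The 250 bases before each RefSeq gene start (GRCm38.p6) were searched for TGANTCA, the AP-1 element, which reads the same on both strands. It was found for 7 of the 31 members with a promoter in the table and for 7.82% of 27025 genes. All 7 were genes of this cluster (Mmp13, Mmp12, Mmp1b, Mmp3, Mmp10, Mmp20 and Mmp7), and the windows of Mmp8 and Mmp27 had no such letters. The last 150 bases before each start are printed 5′ to 3′ on the plus strand, with the element in capitals. They are chr9:7272364-7272513 for Mmp13, chr9:7347224-7347373 for the second listed start of Mmp12, chr9:7445672-7445821 for Mmp3 and chr9:7502192-7502341 for Mmp10, and the element begins at -35, -44, -46 and -63 from the start, in that order.
Mmp13: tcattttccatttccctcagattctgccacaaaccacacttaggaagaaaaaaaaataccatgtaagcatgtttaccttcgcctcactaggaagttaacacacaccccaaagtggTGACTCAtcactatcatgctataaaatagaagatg
Mmp12: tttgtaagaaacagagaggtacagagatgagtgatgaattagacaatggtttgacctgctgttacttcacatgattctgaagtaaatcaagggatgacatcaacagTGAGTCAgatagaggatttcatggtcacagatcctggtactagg
Mmp3: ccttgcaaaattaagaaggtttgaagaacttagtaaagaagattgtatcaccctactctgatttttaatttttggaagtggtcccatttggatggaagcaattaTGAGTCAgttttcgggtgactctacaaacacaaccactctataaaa
Mmp10: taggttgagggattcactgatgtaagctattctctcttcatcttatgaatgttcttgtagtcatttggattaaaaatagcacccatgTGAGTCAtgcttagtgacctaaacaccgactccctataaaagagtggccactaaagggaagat
A match is a description of letters and not a shown binding site. The element was present before genes that were well above background here (Mmp3, Mmp12, Mmp13) and before genes that were not (Mmp7, Mmp20). The first listed start of Mmp12 had no match in its window.

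The first comparison asks how the level of each protease and inhibitor differed between the tumour of the KO host and that of the WT host. Members summed to 1606 CPM in WT and 1254 CPM in KO. Of the 44 measured members, 8 were at least 2-fold lower in KO, beside 4.88% of all 16961 genes with 50 or more UMIs, and 4 were at least 2-fold higher, beside 14.9%. Their median log2 ratio of KO over WT was -0.23, and that of all these genes was 0.16. Among the 25 members with 500 or more UMIs, 7 were at least 2-fold lower (5.30% of 11026 genes) and 1 was at least 2-fold higher (0.961%), and their median was -0.41 beside 0.01. By family the medians were -0.12 for 21 Mmp genes (4 higher, 3 lower), -0.66 for 19 Adamts genes (0 higher, 4 lower) and -0.07 for 4 Timp genes (0 higher, 1 lower). The 7 lower members were Mmp2, Mmp19, Mmp23, Adamts2, Adamts5, Adamts15 and Timp1, and the fibroblast and collagen list moved with them, at a KO over WT ratio of 0.125; its part in these differences was not tested. Scaling by edgeR TMM factors lowers every log2 ratio by 0.22 and brings Mmp3, Mmp13, Timp2, Adamts7 and Adamts9 from just above 1 to below 1.

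**Figure D1:**
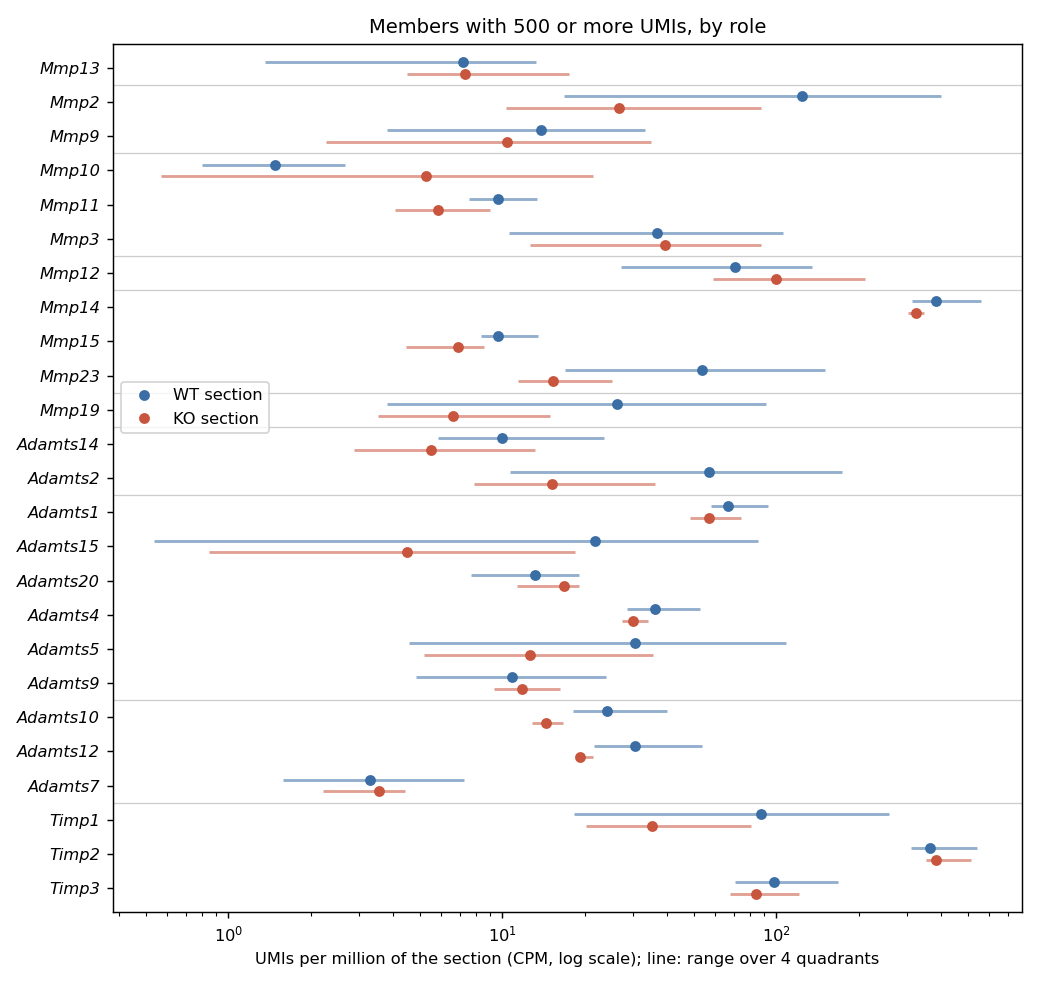
Level of the 25 members with 500 or more UMIs, in CPM on a log axis, ordered by role; points are whole sections (WT blue, KO red) and lines run from the lowest to the highest of 4 quadrants. Mmp2 stands at 124 CPM in WT and 26.8 in KO, and Mmp10 at 1.49 and 5.25, while the quadrant lines of most members overlap between sections.

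Of the gelatinases, Mmp2 (gelatinase A, chromosome 8, 92827290 to 92853421), which cuts denatured and basement membrane collagen, had 11043 UMIs in WT and 2530 in KO. These are 124 CPM, with quadrants from 16.8 to 398, and 26.8 CPM, with quadrants from 10.3 to 87.6. Mmp2 was high in 1 part of the WT section and the quadrants overlapped between sections, although the sums differed 4.64-fold (4.45 to 4.85). Giving each spot equal weight raised the ratio of Mmp2 from 0.215 to 0.376. Mmp9 (gelatinase B), known from neutrophils and macrophages, stood at 13.9 CPM in WT (quadrants 3.81 to 33.2) and 10.4 in KO (2.27 to 34.98), a ratio of 0.751 (0.690 to 0.818). The quadrants of Mmp9 covered almost the same range in both sections.

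Among the collagenases, Mmp13, a main enzyme that opens fibrillar collagen in the mouse, was at 7.19 CPM in WT (quadrants 1.36 to 13.3) and 7.31 CPM in KO (4.49 to 17.6). Its ratio of 1.02 (0.911 to 1.13) includes 1. Mmp8, the neutrophil collagenase, gave 154 and 124 UMIs, a ratio of 0.757 (0.592 to 0.965).

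The stromelysins differed from one another in their ratios. Mmp3 (stromelysin-1), which activates other proenzymes, was at 36.6 CPM in WT (quadrants 10.6 to 106) and 39.4 CPM in KO (12.6 to 87.7), a ratio of 1.07 (1.02 to 1.13). The sums of Mmp3 thus lay close together, beside a ratio of 0.125 for the fibroblast and collagen list, and its quadrants overlapped. Mmp10 (stromelysin-2) had 132 UMIs in WT and 496 in KO, or 1.49 CPM (quadrants 0.805 to 2.68) and 5.25 CPM (0.567 to 21.5), a ratio of 3.53 (2.91 to 4.31). The highest KO quadrant reached 21.5 CPM while the lowest lay under every WT quadrant, so the quadrants overlapped. Mmp11 (stromelysin-3) was at 9.64 and 5.84 CPM, a ratio of 0.606 (0.543 to 0.675) with overlapping quadrants.

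Mmp12, the macrophage metalloelastase (chromosome 9, 7344397 to 7360461), had 6296 UMIs in WT and 9389 in KO. These are 70.95 CPM (quadrants 27.0 to 135) and 99.4 CPM (58.7 to 212), a ratio of 1.40 (1.36 to 1.45) with overlapping quadrants. Equal weight per spot brought the ratio of Mmp12 to 1.01.

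**Figure D2:**
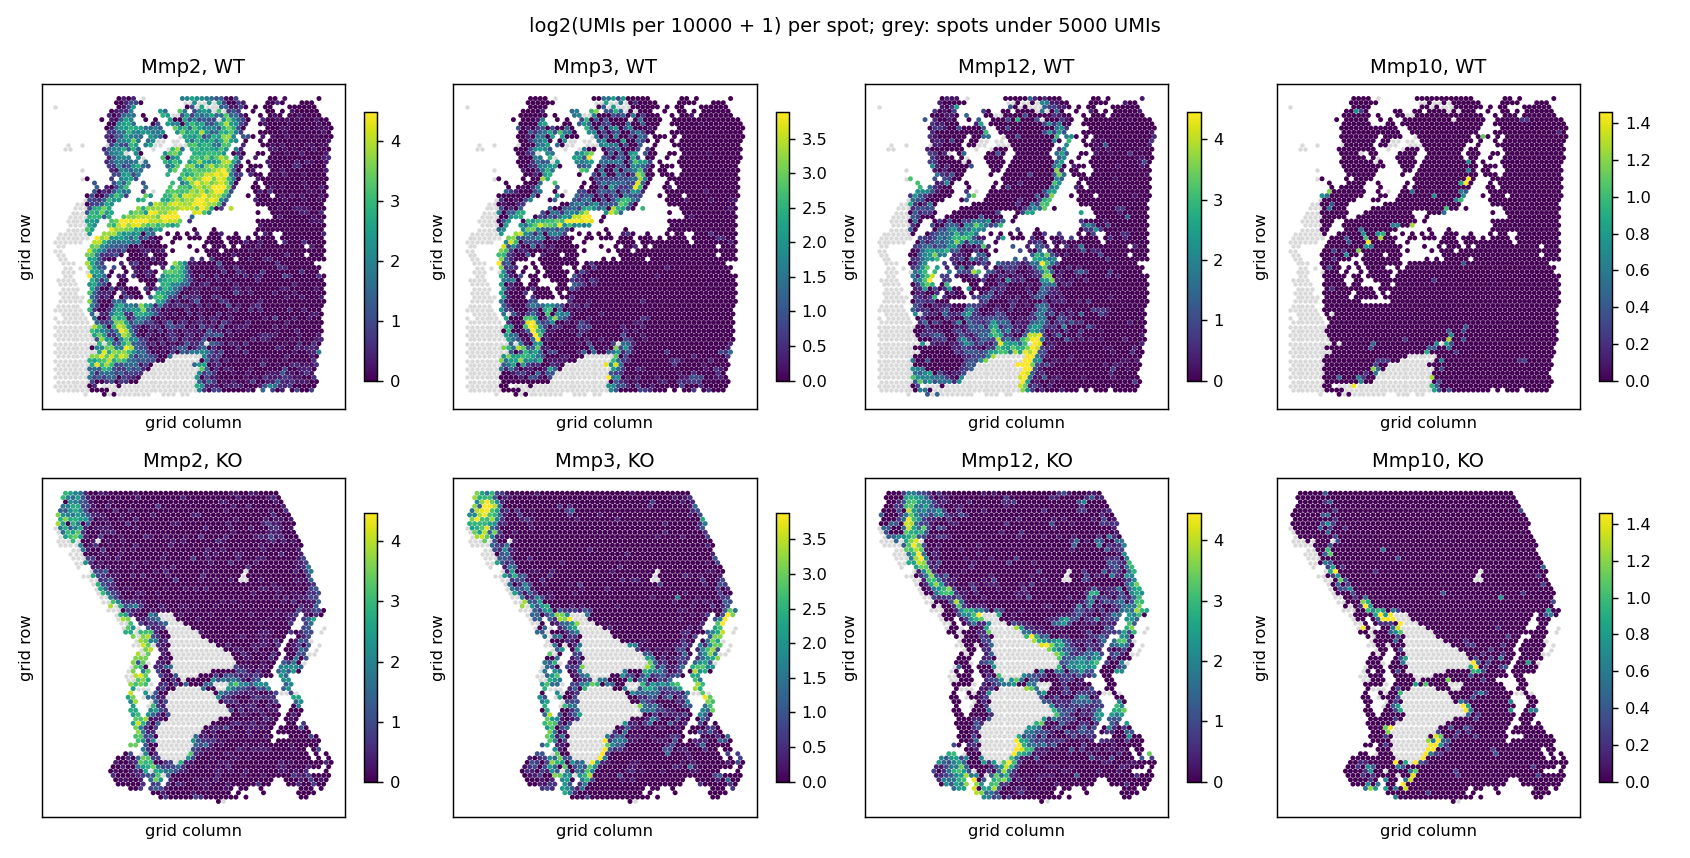
Maps of Mmp2, Mmp3, Mmp12 and Mmp10 in the WT (top) and KO section (bottom), each point a spot at its grid row and column, coloured by log2(UMIs per 10000 + 1), with 1 colour scale per gene for both sections and spots under 5000 UMIs in grey. Mmp2 and Mmp3 fill a broad area on the left and upper part of the WT section and narrow strips along the borders of the KO section, and Mmp10 lies in thin lines, 101 WT and 238 KO spots holding a UMI.

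Of the membrane-bound enzymes, Mmp14 (MT1-MMP), which activates the Mmp2 proenzyme together with Timp2, was spread over both sections, with a UMI in 2813 of 3066 WT spots and 2496 of 2746 KO spots. Its level was 384 CPM in WT (quadrants 314 to 559) and 325 CPM in KO (301 to 347), a ratio of 0.846 (0.833 to 0.8595). Mmp23 was at 53.5 CPM (16.9 to 151) and 15.3 CPM (11.4 to 25.1), a 3.504-fold lower level in KO (3.30 to 3.72), and its quadrants overlapped. Mmp15 (MT2-MMP) was at 9.69 CPM (8.38 to 13.5) and 6.89 CPM (4.44 to 8.56), a ratio of 0.711 (0.642 to 0.789). The quadrants of Mmp15 met only at their ends, the highest KO quadrant lying just above the lowest WT one. Mmp19, a secreted enzyme outside these groups, was at 26.2 CPM in the WT (3.80 to 91.6) and 6.64 in KO (3.52 to 14.9), 3.94-fold lower (3.605 to 4.31). Mmp19 followed Mmp2 in this, high in 1 part of the WT section and overlapping by quadrant.

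Of the procollagen N-proteinases, which trim the amino end of fibrillar procollagens, Adamts2 was at 57.1 CPM in WT (quadrants 10.7 to 174) and 15.2 CPM in KO (7.89 to 36.2), 3.75-fold lower (3.54 to 3.98). Adamts14 was at 9.96 CPM (5.85 to 23.6) and 5.497 CPM (2.87 to 13.2), a ratio of 0.552 (0.494 to 0.616). Adamts3 gave 130 and 36 UMIs, a ratio of 0.260 (0.175 to 0.379), and its KO count lay under 2 times the probe background. All 3 enzymes had ratios below 1, and the quadrants of each overlapped.

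The proteoglycan-cleaving members split. Adamts15 was at 21.8 CPM in WT (quadrants 0.537 to 85.9) and 4.49 CPM in KO (0.850 to 18.4), 4.86-fold lower (4.38 to 5.42). Adamts5 (aggrecanase-2) was at 30.5 CPM (4.58 to 108) and 12.7 CPM (5.18 to 35.6), 2.41-fold lower (2.25 to 2.58). Both had quadrants that overlapped and spanned over an order of magnitude within the WT section. Adamts1 was at 66.7 and 56.9 CPM, a ratio of 0.853 (0.822 to 0.886), and Adamts4 (aggrecanase-1) at 36.1 and 30.01 CPM, a ratio of 0.831 (0.790 to 0.875). Adamts9 was at 10.9 CPM (4.83 to 24.0) and 11.8 CPM (9.35 to 16.3), and its ratio of 1.09 (0.997 to 1.19) includes 1. Adamts20, whose loss causes the belted coat pattern in mice through pigment cell precursors, was at 13.2 CPM (7.69 to 19.1) and 16.8 CPM (11.4 to 19.1), a ratio of 1.27 (1.18 to 1.38). The highest quadrants of Adamts20 were equal to 3 digits in the 2 sections.

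Among the other ADAMTS genes, Adamts10, which binds fibrillin microfibrils, was at 24.2 CPM in the WT (18.2 to 40.04) and 14.5 CPM in KO (12.8 to 16.7), a ratio of 0.601 (0.561 to 0.643). Adamts12 was at 30.5 CPM (21.6 to 53.5) and 19.3 CPM (18.6 to 21.5), a ratio of 0.632 (0.595 to 0.671). For Adamts10 and Adamts12 every KO quadrant lay below every WT quadrant, which held for these 2 of the 25 members and for 9.27% of genes with 500 or more UMIs. None of the 25 had every KO quadrant above, beside 17.7%. Adamts7, the relative of Adamts12 that cuts cartilage oligomeric matrix protein, was at 3.302 and 3.54 CPM, and its ratio of 1.07 (0.913 to 1.26) includes 1.

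The inhibitors differed from one another. Timp1 (chromosome X, 20870166 to 20874737), a secreted inhibitor often raised in inflammation and wound repair, was at 87.9 CPM in WT (quadrants 18.2 to 257) and 35.2 CPM in KO (20.2 to 80.7), 2.501-fold lower (2.401 to 2.605). Timp2, which both blocks Mmp2 and helps Mmp14 to activate it, was at 365 CPM (311 to 540) and 384 CPM (352 to 513), a ratio of 1.05 (1.04 to 1.07). Timp3, held in the matrix and active against several ADAMTS enzymes, was at 98.3 CPM (70.5 to 168) and 84.3 CPM (68.05 to 121), a ratio of 0.857 (0.831 to 0.884). All 3 had overlapping quadrants, and Timp1 alone of the 3 was past 2-fold.

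The 19 measured members with fewer than 500 UMIs had ratios from 0.260 (Adamts3) to 3.20 (Mmp7), with 3 at least 2-fold higher (Mmp7, Mmp21 and Mmp24), 1 lower and a median log2 ratio of -0.12. Mmp7, Mmp21 and Mmp24 had 18 to 20 UMIs in WT and 54 to 68 in KO, under 2 times the probe background in both, and that background itself had a median 42 against 16 UMIs. Mmp8 and Mmp28 were above 2 times background in both sections. Mmp17, Mmp25, Adamts3, Adamts6, Adamts8, Adamts16, Adamts17 and Adamts19 were above it in the WT section only. Mmp16, Mmp20, Mmp27, Adamts13, Adamts18 and Timp4 were not above it in either.

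The second comparison asks where in each section the members lay. For each of 10 marker lists with enough UMIs, the spots in the top 10% for the list's share of UMIs were set against the other spots of the same section, among spots of 5000 or more UMIs (2671 WT and 2390 KO). Spots rich in a list are small regions and not cells. Of members with 50 or more UMIs in a section, 24 of 35 were at least 2-fold higher in the fibroblast-rich spots of the WT section (19.3% of all genes) and 19 of 38 in those of the KO section (20.2%). In macrophage-rich spots these counts were 25 (22.0%) and 23 (22.3%), in hypoxia-rich spots 6 (3.14%) and 11 (5.88%), and in melanocytic-rich spots 0 in both (0.239% and 0.501%). For the other lists, given by what marks them, the counts were 26 (19.6%) and 19 (15.6%) in pericyte and smooth muscle-rich spots, 28 (20.5%) and 19 (14.1%) in adipocyte-rich spots and 18 (14.1%) and 18 (15.2%) in erythroid-rich spots. In KO the names of 2 of these lists describe their spots poorly. The pericyte and smooth muscle list was led by Des (38.0% of its UMIs), with 117 of 239 spots also skeletal muscle-rich, and Fabp4 gave 81.1% of the adipocyte list. T cell-rich and skeletal muscle-rich spots were read in KO alone, with 19 (16.3%) and 16 (15.7%) of 38. In melanocytic-rich spots, 18 of 35 members were at least 2-fold lower in WT (14.3% of genes) and 11 of 38 in KO (9.24%). Fibroblast-rich spots were shallower than others, with a median of 15302 against 32594 UMIs in WT and 8778 against 42298 in KO. Of the 239 macrophage-rich KO spots, 207 were also fibroblast-rich, so these regions are largely the same there, while in the WT section 78 of 267 were.

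**Figure D3:**
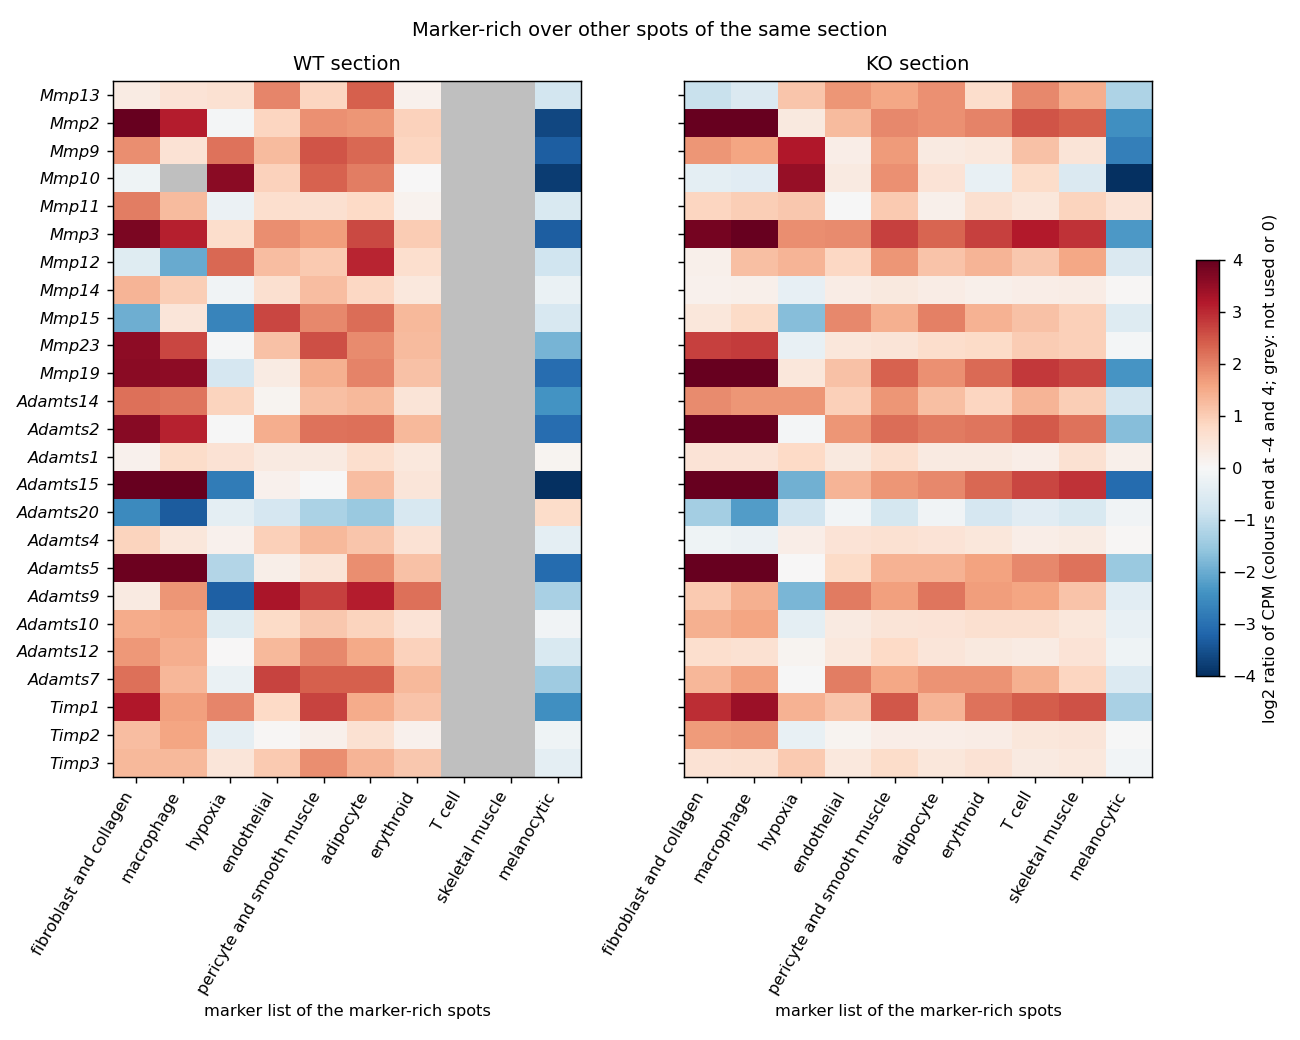
Log2 ratio of CPM in marker-rich over other spots for the 25 members with 500 or more UMIs (rows) and each marker list (columns), WT left and KO right; colours end at a 16-fold difference either way, and grey marks lists with too few UMIs or a level of 0. Mmp2, Mmp3, Mmp19, Adamts2, Adamts5 and Adamts15 are dark red in the fibroblast column of both sections, Mmp10 and Mmp9 in the hypoxia column, and Adamts20 is blue in the fibroblast and macrophage columns.

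A group of members was higher in fibroblast-rich spots of both sections. Mmp2 was at 1246 CPM in the fibroblast-rich and 66.9 CPM in the other spots of the WT section, 18.6-fold higher (17.9 to 19.3), and at 401 and 12.7 CPM in KO, 31.7-fold higher (29.2 to 34.4). Adamts15 was 25.1-fold higher in the WT (22.9 to 27.5) and 87.5-fold higher in KO (69.3 to 111). Adamts5 was 15.1-fold and 23.3-fold higher, Adamts2 12.4-fold and 17.6-fold, Mmp19 12.3-fold and 17.4-fold, and Mmp23 11.97-fold and 6.68-fold. Mmp3 was 13.6-fold higher in the WT (12.7 to 14.7) and 14.2-fold in KO (13.2 to 15.2), with 301 CPM in WT and 378 CPM in the KO fibroblast-rich spots. Of these genes Mmp3 had the higher level in the KO and the others in the WT fibroblast-rich spots, where the list itself stood at 130243 CPM in WT and 24697 CPM in KO. In KO the largely identical macrophage-rich spots gave like or higher ratios, 33.0-fold for Mmp2, 107-fold for Adamts15, 25.8-fold for Adamts5, 20.7-fold for Mmp19, 18.4-fold for Mmp3 and 10.7-fold for Timp1, so these data do not assign the members to either list there. In WT too the highest ratio of Adamts5 was in macrophage-rich spots (15.2-fold, 14.1 to 16.4), as was that of Timp2 (3.01-fold, 2.91 to 3.12). Those of Mmp2, Mmp3, Mmp19, Mmp23, Adamts2, Adamts15, Timp1 and Mmp14 in WT were in fibroblast-rich spots. Timp1 (9.20-fold and 7.73-fold) and Timp2 (2.33-fold and 3.29-fold) were higher in the fibroblast-rich spots of both sections too. Mmp14 was 2.58-fold higher in the WT but 1.12-fold in KO, at 920 against 363 CPM, with nearly the same level outside (356 and 324 CPM).

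Members higher in hypoxia-rich spots of both sections included Mmp10, Mmp9, Mmp12, Timp1 and Adamts14. There the hypoxia list (led by Pgk1) stood at 5937 CPM in WT and 7728 CPM in KO. Mmp10 was at 8.86 CPM there and 0.724 elsewhere in the WT section, 12.2-fold higher (8.38 to 17.9), and at 32.9 and 2.97 CPM in KO, 11.1-fold higher (9.19 to 13.4). Mmp9 was 4.50-fold higher in the WT (3.94 to 5.13) and 9.11-fold in KO (7.98 to 10.4). Mmp12 was 4.95-fold and 2.57-fold higher, Timp1 3.85-fold and 2.60-fold, and Adamts14 1.84-fold and 3.39-fold. Only Mmp10 had its highest ratio in these spots in both sections. Mmp9 was highest there in KO, but in WT in pericyte and smooth muscle-rich spots (5.73-fold, 5.03 to 6.50). Timp1 was higher in fibroblast-rich WT (9.20-fold) and macrophage-rich KO spots (10.7-fold), and Adamts14 in fibroblast-rich spots of both (4.62-fold and 3.73-fold). Mmp12 was higher in adipocyte-rich WT (8.28-fold) and pericyte and smooth muscle-rich KO spots (3.38-fold). In both sections the hypoxia-rich spots held less Adamts9 (0.103 and 0.283 of the level elsewhere), Mmp15 (0.160 and 0.307) and Adamts15 (0.143 and 0.265). Hypoxia-rich spots shared 17 of 267 spots with the fibroblast-rich ones in WT and 9 of 239 in KO, and 2 with the macrophage-rich ones in each.

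Mmp12 was low in the spots richest in macrophage genes of the WT section, although from the second to the ninth of 10 bins of macrophage share (below) it was higher where that share was higher. It was at 17.3 CPM in the macrophage-rich spots and 69.2 CPM elsewhere, a ratio of 0.250 (0.192 to 0.320), although that list, led by C1qa, C1qc and C1qb, reached 7569 CPM there. In the KO section Mmp12 was at 218 CPM in macrophage-rich spots and 93.8 elsewhere, 2.32-fold higher (2.13 to 2.52). In the WT section its highest ratio was in spots rich in the adipocyte list, 401 against 48.4 CPM (8.28-fold, 7.83 to 8.74), and there Fabp4 gave 45.2% and Lpl 32.6% of the list's UMIs, genes that macrophages can also express.

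Some members were higher in endothelial-rich spots. In these spots, led by Plvap, Adamts9 was at 61.0 CPM against 6.35 CPM elsewhere in the WT (9.60-fold, 8.44 to 10.9) and at 38.8 against 9.14 CPM in KO (4.25-fold, 3.72 to 4.84). Mmp15 was 6.37-fold and 3.79-fold higher there, Adamts7 6.45-fold and 4.11-fold, and Mmp13 3.89-fold and 3.38-fold. In all, 17 of 35 members were at least 2-fold higher in these WT spots (14.0% of genes) and 13 of 38 in the KO ones (12.2%). Of the 267 endothelial-rich WT spots 149 were also adipocyte-rich, as were 150 of 239 KO ones, and these values are not particular to endothelial-rich spots. Mmp13 was higher still in adipocyte-rich WT spots (5.25-fold, 4.31 to 6.36) and had 3.81-fold (3.15 to 4.59) in T cell-rich KO spots. In adipocyte-rich KO spots Adamts9 had 4.37-fold and Mmp15 4.03-fold, within the intervals of their endothelial values.

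Adamts20 was low in fibroblast-rich and macrophage-rich spots. It had its highest ratio in melanocytic-rich spots of the WT section, 20.7 against 12.4 CPM (1.68, 1.43 to 1.956), and 0.910 in those of the KO section. In fibroblast-rich spots it was 0.173 (0.0825 to 0.318) and 0.387 (0.232 to 0.606) of the level elsewhere, and in macrophage-rich spots 0.0997 and 0.214. Adamts1 stayed between 1.09 and 1.75 times its level elsewhere in every region of both sections.

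Distance from the tissue edge was read as steps on the hexagonal grid to a position without tissue or to the frame of the array, with spots of 1 or 2 steps called the rim (1364 WT and 761 KO spots). In the WT section 1 of 35 members was at least 2-fold higher at the rim than in the interior (1.29% of genes) and 0 were lower (0.10%). This was Adamts8, at 1.38 and 0.415 CPM (ratio 3.32, 1.97 to 5.74). In the KO section 9 of 38 were at least 2-fold higher (9.04%) and 0 lower (0.567%). Adamts15 was at 13.5 CPM at the rim and 1.80 in the interior (7.51-fold, 6.09 to 9.305), Mmp2 at 66.7 and 14.9 CPM (4.47-fold, 4.13 to 4.845), and Adamts5, Mmp19, Adamts2, Mmp3, Mmp25, Timp1 and Adamts14 followed with 3.73 down to 2.06-fold. The fibroblast and collagen list was 4.36-fold and the macrophage list 4.65-fold higher at the KO rim, against 1.51-fold and 1.43-fold at the WT rim. Skeletal muscle (8.45-fold), neutrophil (3.07-fold) and T cell lists (2.85-fold) were higher at the KO rim too, and the part of these lists in the edge profile of the members was not tested. Leaving out the fibroblast-rich spots, Mmp2 was still 2.72-fold and Adamts15 4.91-fold higher at the KO rim. Among melanocytic-rich spots alone these ratios were 1.36 and 1.48.

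Mmp12 ran in opposite directions with depth into the tissue. In the WT section it was at 63.2 CPM at 1 to 2 steps, 50.2 at 3 to 5, 81.8 at 6 to 10 and 164 at more than 10 steps. In the KO section it was at 133, 127, 83.8 and 49.7 CPM over the same distances. The rim over interior ratio of Mmp12 was 0.835 (0.792 to 0.880) in WT and 1.49 (1.42 to 1.55) in KO, and Mmp9 had 0.883 (0.783 to 0.994) and 1.45 (1.26 to 1.66). By depth Mmp9 was at 12.8, 15.8, 15.2 and 7.003 CPM in WT and at 13.7, 17.6, 6.03 and 4.03 CPM in KO, lowest in the deepest spots of both. Mmp14 had rim over interior ratios of 1.08 in WT and 1.11 in KO, and Timp2 1.12 and 1.32.

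**Figure D4:**
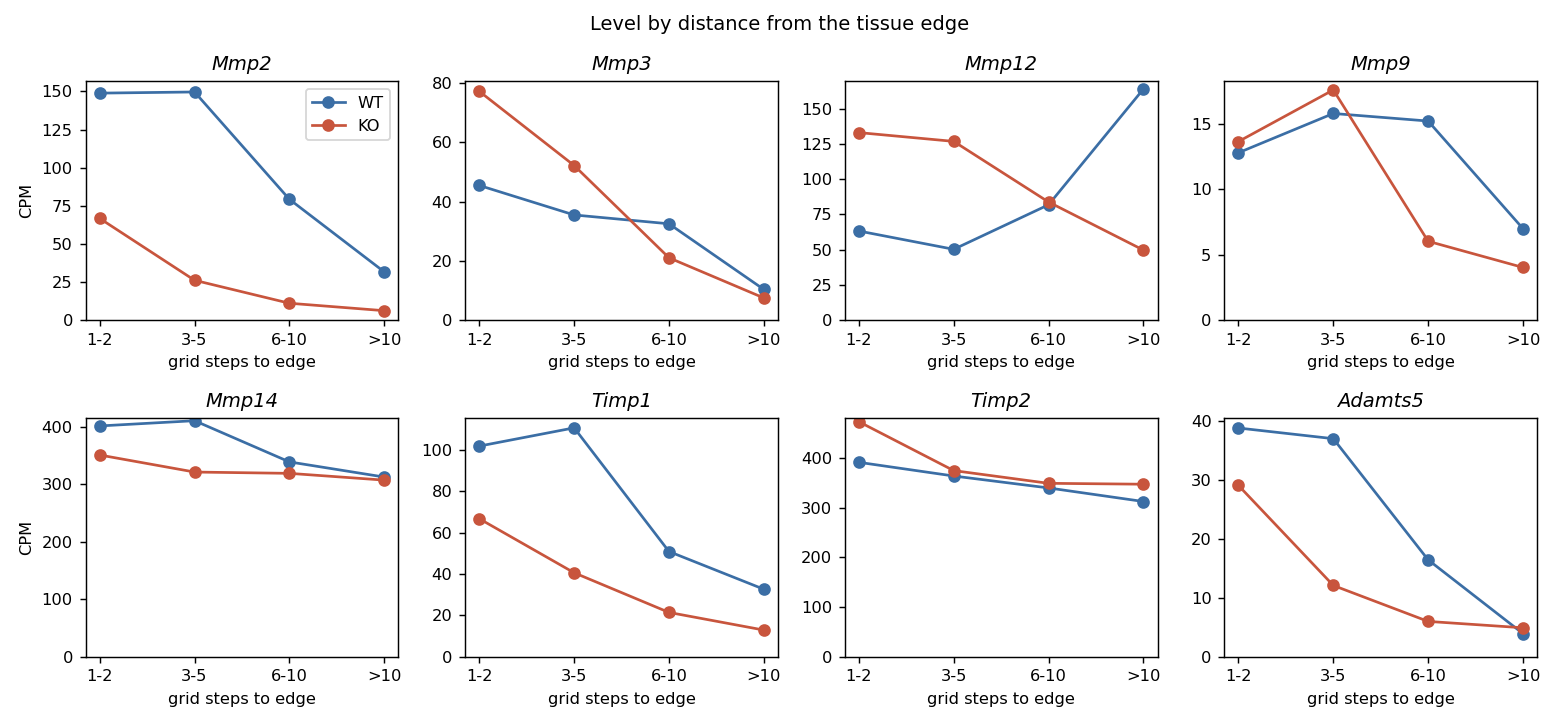
Level in CPM by distance to the tissue edge in grid steps (1 to 2, 3 to 5, 6 to 10, more than 10) for 8 members, WT in blue and KO in red, with axes from 0. Mmp2 falls from 149 to 31.7 CPM in WT and from 66.7 to 6.17 CPM in KO, and Mmp12 rises from 63.2 to 164 CPM in the WT while it falls from 133 to 49.7 CPM in KO.

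Moran's I, which the authors' software gives per gene and which is near 0 for a random layout and near 1 where neighbouring spots are alike, was 0.1 or more for 26 of 35 members in the WT (60.8% of genes) and 18 of 38 in KO (49.4%). The median over members was 0.19 in the WT (0.14 over all genes) and 0.096 in KO (0.097). Mmp2 had the highest value in both, 0.72 and 0.54. In the WT section Adamts5 (0.66), Adamts15 (0.64), Adamts2 (0.64), Mmp12 (0.635), Mmp19 (0.62) and Timp1 (0.599) followed, and in KO Mmp3 (0.52), Mmp12 (0.51) and Timp2 (0.43). The value was lower in KO for 22 of the 25 members with 500 or more UMIs and for 57.1% of genes with as many; 17 of these 25 members also had a lower level in KO. Moran's I falls with sparse counts, so values of members with few UMIs are not comparable with these.

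To show what each member's map resembled, members with 1000 or more UMIs in a section were correlated over spots with every other gene of 500 or more UMIs (Pearson, log scale, 2671 WT and 2390 KO spots). Spots share library, depth and tissue makeup, so these values are descriptions. Mmp2 was most like Rnase4, Col3a1 and Fstl1 in the WT (all 0.91) and Dcn, Rnase4 and Fstl1 in KO (0.88, 0.88 and 0.87). Adamts5 was most like Dpt, Tnxb and Htra3 in the WT (0.88 to 0.86) and Clec3b, Tnxb and Dpt in KO (0.80 to 0.77). Mmp12 had the same 3 nearest genes in both sections, Spp1, Il1rn and Lgals3, at 0.59, 0.58 and 0.49 in WT and 0.70, 0.73 and 0.66 in KO. Spp1 (osteopontin) and Lgals3 (galectin-3) are abundant in some tumour macrophages, and Il1rn encodes the interleukin-1 receptor antagonist.

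Of other members, some had the same and some had other nearest genes in the 2 sections. Mmp3 was nearest to C3, Serping1 and Cpxm1 in the WT (0.74 to 0.71), of which the first 2 belong to the complement system, and to Bgn, Dcn and Col1a2 in KO (0.74 to 0.72), while by Spearman correlation Dcn came first in WT. Mmp14 reached 0.66 with Postn in the WT but no more than 0.21, with Col4a2, in KO. Timp1 was nearest to Fbln2, Lox and Thbs1 in the WT (0.84 to 0.81) and to Tnc, Fbln2 and Pf4 in KO (0.68 to 0.66), with Fbln2 in both. Adamts9, read in KO alone, was nearest to the endothelial genes Plvap and Cdh5 and to Fabp4 of the adipocyte list (0.50 each). Adamts20 was nearest to Enpp2, Bmyc and the melanosome gene Slc24a5 in the WT section (0.33 to 0.30). In KO it was nearest to Rpn1, Scd2 and Fkbp4 (0.25 to 0.24). Between members the highest values were 0.85 for Adamts2 with Mmp2 in WT and 0.74 for Adamts5 with Mmp2 in KO.

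Since the fibroblast and collagen list differed so much between sections, levels were also compared between spots with a like share of that list. This comparison was chosen after the data were seen. A like share of the list is not a like content of fibroblasts, since Col1a1, Col3a1 and Col1a2 lead the list. Spots of both sections together were cut into 10 bins of fibroblast and collagen share, and 9 bins with 20 or more spots in each section were averaged with equal weight, so that the ratio rests mainly on the richest of them. The tenth bin held 503 WT and 4 KO spots and gave no comparison. Genes of the list itself were not alike within bins. Their KO over WT ratios were 0.623 for Col1a1, 0.616 for Col1a2 and 1.49 for Col3a1. Dcn, named after its values were seen, had 3.61. Within bins, 0 of the 44 members were at least 2-fold lower in KO and 11 were at least 2-fold higher; the median log2 ratio was 0.30, beside 0.20 over all genes, of which 3234 of 16961 were at least that much higher and 110 lower. Of the 25 members with 500 or more UMIs, 4 were among the higher ones (Mmp3, Mmp10, Adamts5 and Adamts15). The share of all genes with 500 or more UMIs is not given for these bins. The other higher ones were Mmp7, Mmp16, Mmp20, Mmp21, Mmp24, Mmp25 and Mmp27. None of them was above 2 times the probe background in KO, and only Mmp25 was in WT. That background had a median of 42 UMIs in KO and 16 in WT. Mmp2 (1.38, 1.303 to 1.47), Mmp19 (1.29), Adamts2 (1.18) and Timp1 (1.12) turned from lower to slightly higher, Mmp23 stood at 0.825 and Mmp14 at 0.974. Adamts15 (3.07, 2.61 to 3.61) and Adamts5 (2.58, 2.33 to 2.85) turned to at least 2-fold higher. In the ninth bin the list was still at 32196 CPM in WT and 26747 CPM in KO, and Mmp2 at 286 and 454 CPM.

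Mmp3 and Mmp10 had the highest ratios over these bins. The level of Mmp3 was higher in fibroblast-rich than in fibroblast-poor bins of both sections and was higher in KO in each of the 9 bins. In the sixth to ninth bin it was at 2.84, 9.93, 31.8 and 102 CPM in WT and at 21.4, 84.7, 170 and 408 CPM in KO. The ratio over bins was 4.68 (4.36 to 5.02), against 1.07 for the whole sections. Mmp10 had 4.59 (3.70 to 5.69) in these bins.

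**Figure D5:**
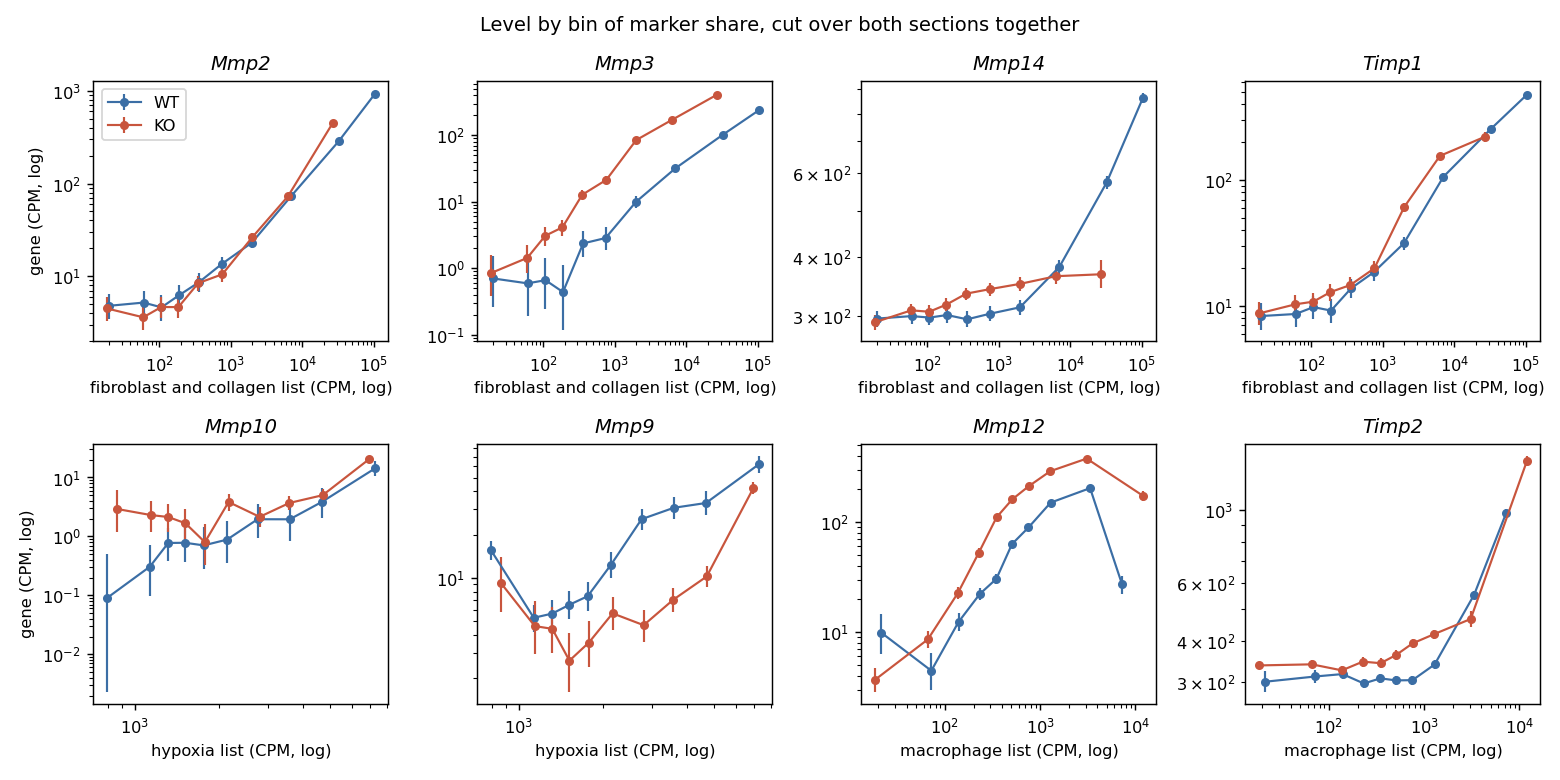
Level of 8 members (CPM, log axis) against the mean CPM of a marker list (log axis) in bins of that list's share, cut over WT (blue) and KO (red) spots together, with bars for the 95% counting interval. In the ninth bin Mmp2 is at 286 CPM in WT and 454 in KO, and Mmp3 lies higher in KO in every shared bin. Mmp12 rises with macrophage share to 203 and 377 CPM before it falls in the last bin to 27.1 and 173 CPM.

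Bins of hypoxia share, also chosen after the data were seen, gave other values for members that were higher in hypoxia-rich spots. Mmp10 went from a ratio of 3.53 to 1.77 (1.41 to 2.21), and its richest bin held 14.2 CPM in WT and 20.6 CPM in KO. Mmp9 went from 0.751 to 0.461 (0.418 to 0.508), but to 1.37 (1.24 to 1.52) in fibroblast bins, 1.104 (0.999 to 1.22) in macrophage bins and 1.31 (1.004 to 1.73) in melanocytic-rich spots, so its direction changed with the spots compared. In hypoxia bins Mmp12 went from 1.40 to 0.931 (0.896 to 0.966). In bins of macrophage share Mmp12 was 2.304-fold higher in KO (2.22 to 2.39) and Mmp10 5.10-fold (4.102 to 6.35), while Mmp2 stayed lower at 0.420. The sign of the Mmp12 difference therefore changed with the share held alike.

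The rest of the proteolysis system was read from 6 gene lists. Of the substrates, 11 of 19 measured genes were at least 2-fold lower in KO and 1 higher, with a median log2 ratio of -1.78. Col1a1 (4812 and 465 CPM, ratio 0.0966), Col1a2 (3426 and 309 CPM, ratio 0.0901) and Col3a1 (3581 and 570 CPM, ratio 0.159), chains of fibrillar collagens, are also in the fibroblast list. Col2a1, a fibrillar collagen of cartilage, named after its values were seen, had 733 and 1171 UMIs and a ratio of 1.501 (1.37 to 1.65). Acan, the only substrate at least 2-fold higher, had 18 and 52 UMIs, under 2 times background in both. Of 13 genes of the plasminogen system and serine proteases 6 were lower and 1 higher (median -0.98). Htra3 was at 180 and 32.7 CPM (ratio 0.182) and Prss23 at 111 and 50.2 CPM (0.450), while Plg had 16 and 92 UMIs.

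Of 14 other metalloproteases 4 were lower and 1 higher (median -0.54). Adam8 was at 90.3 and 27.2 CPM (ratio 0.301) and Bmp1, the procollagen C-proteinase, at 131 and 42.5 CPM (0.324), whereas Adam10, a sheddase, had a ratio of 1.07 and Adam9 0.682. Of 7 cathepsins, lysosomal proteases, 2 were lower and 0 higher (median -0.86), with Ctsk, known for cutting collagen, at 0.3615, Ctsd at 0.544, Ctsb at 0.749 and Ctsz at 0.982. Of 5 ADAMTS-like proteins, which lack the protease domain, 2 were lower (median -0.20), with Adamtsl1 at 0.185 and Adamtsl4 at 0.912. Of 11 other protease inhibitors 2 were lower and 1 higher (median 0.14), with Cst3 at 0.844, Cstb at 1.02, Cst6 at 1.31 and Tfpi2 at 0.347. The shares of all genes past 2-fold were 4.88% lower and 14.9% higher.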

How the data were processed

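Members and gene lists were chosen with earlier results of these data known. The authors deposited raw UMI counts for every gene in every spot, without normalization; the file headers name Space Ranger 2.1.0. Other deposited columns give gene symbols, barcodes and grid positions, per the file headers, for 4992 positions a section. Moran's I is a score deposited by the authors, from their software's normalized values. featureCounts and the mm10 build also stand in the submitters' processing notes, and their role is not given in the sources used here. Probe pairs report the targeted part of a transcript only, so counts between genes were not compared.

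Counts were summed per section or region and scaled to CPM. Ratios carry exact conditional binomial (Clopper-Pearson) 95% intervals, CPM exact Poisson ones, and ratios over bins approximate intervals from the counts. With 1 section per genotype no test, p-value or standard error was computed and spots were not treated as replicates. A list was used in a section where marker-rich spots held a median of 5 or more of its UMIs. The off-tissue list has 15 genes. Melanocytic-rich spots in comparisons of sections hold at least the pooled median share. Promoters and positions come from RefSeq (GRCm38.p6).

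Every member could be named, and exceptions are said to be so. Members with 500 or more UMIs get full values, other members their range and extremes, each related list its 3 most abundant genes and both extremes, and each layout comparison its 3 nearest genes. A gene of the related lists is not reported here. Role groups were set after the counts were seen. Alternatives were other scalings, spot sets, thresholds, rims and measures. The scripts were tested on simulated data. Tools were Python 3.11.15, numpy 2.4.6, scipy 1.17.1, pandas 2.3.3 and edgeR 4.0.16 (TMM factors only) in R 4.3.3.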

Additional observations from a re-analysis of the deposited data

Results flagged for a closer look

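Mmp9 and Mmp12 differed between rim and interior in opposite directions in the 2 sections, and this difference between sections was not tested. Mmp12 was lower at the rim than in the interior of the WT section, a ratio of 0.835, and higher at the rim of the KO section, a ratio of 1.49. Mmp9 had 0.883 in WT and 1.45 in KO. The deepest spots held the least Mmp9 in both sections, 7.003 CPM in WT and 4.03 CPM in KO. Among melanocytic-rich spots alone the ratios of Mmp12 were 1.45 in WT and 1.16 in KO, and those of Mmp9 1.21 and 0.670. The macrophage list was higher at the rim of both sections, 1.43-fold in WT and 4.65-fold in KO, and the hypoxia list was 1.17-fold higher at the WT rim and 0.828 of the interior level at the KO rim. With 1 section per genotype, genotype and section cannot be told apart.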

How the results depend on the processing

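No paired analysis was possible because there is 1 section per genotype, and leaving out a replicate was not possible for the same reason. The count of measured members at least 2-fold lower in KO (8) became 0 in melanocytic-rich spots and in bins of fibroblast and collagen share, and 14 of 35 with probe background taken off (counts at or under it set to 3 UMIs). The count at least 2-fold higher (4) became 9 with equal weight per spot, 11 in melanocytic-rich spots, 11 in bins of fibroblast share, 1 with background taken off and 1 of 27 members from 200 UMIs. In melanocytic-rich spots 2847 of 16960 genes were at least 2-fold higher and 182 lower. In bins of fibroblast share 3234 of 16961 genes were higher and 110 lower. For the other alternatives named in this section no share over all genes is given. The median log2 ratio (-0.23) became 0.43, 0.30 and -0.81 in melanocytic-rich spots, in fibroblast bins and with background taken off. Adamts5 reversed in melanocytic-rich spots (1.12). In fibroblast bins Mmp2 (1.38), Adamts15 (3.07), Mmp19 (1.29), Adamts2 (1.18), Adamts5 (2.58) and Timp1 (1.12) reversed. The cause of these changes was not tested. The KO count in hypoxia-rich spots (11) became 3 with the top 25% of spots, 5 with 1 limit over both sections and 17 with no depth minimum. At the WT rim the higher count (1) became 3 with a rim of 3 steps, 4 (and 1 lower) in melanocytic-rich spots and 5 without fibroblast-rich spots. At the KO rim the lower count (0) became 1 with a rim of 1 or 3 steps, without the frame or without fibroblast-rich spots and 2 in melanocytic-rich spots, where the higher count (9) became 1. TMM factors moved the lower cathepsins from 2 to 4. Spearman correlation kept 25 of 54 nearest genes in WT and 22 of 48 in KO. The comparison within fibroblast-rich spots of both sections was not run, since only 4 KO spots qualified, and alternatives that left under 20 spots in a region gave no value. Other alternatives of the main counts kept them within 1.5 times. Members near the probe background are limited by depth.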

Other observations

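Members with low counts also had a layout in the WT section. In its fibroblast-rich spots Adamts3 was at 11.7 CPM against 0.953 elsewhere (12.2-fold, 8.40 to 17.7), Adamts19 at 7.38 against 0.691 (10.7-fold, 6.67 to 16.8) and Adamts6 at 8.804 against 0.858 (10.3-fold, 6.71 to 15.5). The highest WT ratio of Adamts19 was in macrophage-rich spots (11.2-fold, 6.93 to 17.7). Mmp25, a membrane-anchored enzyme known from leukocytes, was 12.6-fold higher in macrophage-rich spots of the KO section (7.26 to 21.2). This rests on 21 UMIs there and 56 elsewhere, and its KO count lay under 2 times the probe background. Of these 239 KO spots, 207 were also fibroblast-rich. In the WT section the highest ratio of Mmp25 was in fibroblast-rich spots (6.55-fold). Which cells hold Mmp25 was not tested. Mmp8 was 3.87-fold higher in hypoxia-rich spots of the WT (2.497 to 5.85) and 2.06-fold in those of the KO section (1.05 to 3.701). Its highest ratios were elsewhere, in adipocyte-rich WT spots (6.95-fold, 4.60 to 10.3) and macrophage-rich KO spots (4.54-fold, 2.26 to 8.33). These members were named after their values were seen.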
